A study of Mus musculus with 6 samples.

Results

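The mRNAs described here are the 39 genes listed for the unfolded protein response (UPR) and the integrated stress response (ISR) of the mouse. They were taken by name from the 22048 genes of the deposited table, and all 39 were found. They comprise 14 chaperones and folding factors of the endoplasmic reticulum (ER), 4 genes of the UPR sensors and Xbp1, 10 transcription factors and feedback genes of the ISR, 7 genes of amino acid synthesis and 3 of amino acid transport that are known targets of the transcription factor ATF4, and the lipoprotein receptor gene Vldlr. RNA-Seq had been carried out on neural stem/progenitor cells (NSC/NPCs) of the hypothalamus of male C57BL/6 fetuses at E14.5. In the high estradiol (HE) group, dams of 8 weeks were given estradiol valerate, an ester of the hormone estradiol, between E5.5 and E11.5 by gavage, in a daily dose of 100 μg/kg. In the control (NC) group, dams were given the corn oil solvent over the same days, and the labels of these samples call the treatment untreated. After isolation, no estradiol was named among the contents of the medium, and cells of both groups grew as neurospheres, floating clusters of cells, in medium with EGF and bFGF at 10 ng/ml each. There were 3 samples per group, harvested at first passage, each holding cells of 2 mice, so p-values measure the spread between these pooled cultures. The litter of each sample is not given in the sources used here.

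The UPR is the response of a cell to unfolded protein in the ER. It has 3 sensors in the ER membrane: IRE1 (Ern1), which splices the Xbp1 mRNA into the form that encodes an active transcription factor, ATF6, which is cut to release a transcription factor, and PERK (Eif2ak3), a kinase of the translation factor eIF2. XBP1 and ATF6 induce ER chaperones. PERK shares its target with kinases that sense lack of amino acids, double-stranded RNA or heme, and this common route is the ISR: phosphorylated eIF2 slows translation in general but favours translation of ATF4, which induces genes of amino acid synthesis and transport as well as Ddit3 (CHOP), Trib3 and Ppp1r15a (GADD34). In neural progenitors of the developing brain, PERK signaling and the UPR have been linked to the choice between making neurons directly and making intermediate progenitors. Read counts per gene, as used here, show neither the splicing of Xbp1 nor the translation of Atf4.

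Stretches of the promoters are shown because ER chaperones and ATF4 targets are commonly set apart by the elements in them. A window from 250 bases before to 50 bases after the start site was available from RefSeq (GRCm38.p6) for 35 of the 39 genes. The ER stress response element, bound by ATF6 with the factor NF-Y, was searched on both strands as CCAAT and CCACG with 9 bases between them. It was found in 7 of the 12 chaperones with a window (58.3%), in 0 of the 9 genes of amino acid synthesis and transport and in 0 of the 10 ISR factors, against 0.137% of the 27025 genes with a window. The matching promoters are given 5′ to 3′ on the strand of the gene, with the match in capitals. A match on the opposite strand starts with CGTGG and ends with ATTGG.
Hspa5, chr2:34772010-34772058, plus strand: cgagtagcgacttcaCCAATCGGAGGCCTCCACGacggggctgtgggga
Pdia6, chr12:17266476-17266524, plus strand: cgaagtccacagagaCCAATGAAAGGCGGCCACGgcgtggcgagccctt
Dnajc3, chr14:118937812-118937860, plus strand: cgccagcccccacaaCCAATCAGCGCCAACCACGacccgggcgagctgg
Canx, chr11:50325785-50325833, minus strand: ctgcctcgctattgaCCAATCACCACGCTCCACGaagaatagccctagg
Calr, chr8:84847060-84847108, minus strand: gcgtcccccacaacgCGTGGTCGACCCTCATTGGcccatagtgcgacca
Creld2, chr15:88819505-88819553, plus strand: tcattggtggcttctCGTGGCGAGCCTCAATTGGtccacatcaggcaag
Hsp90b1, chr10:86705518-86705566, minus strand: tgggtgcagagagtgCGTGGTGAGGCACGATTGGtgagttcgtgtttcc

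Hsp90b1 held another match farther from its start site. The second form of the element, ATTGG and CCACG with 1 base between them, was found in Herpud1 alone of the 35 genes and in 0.0444% of all genes. The letters TGACGTGG, a core of XBP1 and ATF6 sites, were in none of the 35 genes and in 0.714% of all genes. The C/EBP-ATF element, searched as TGATGNAA on both strands, is bound by ATF4 with a C/EBP partner. It was found in 7 of the 35 genes, namely Asns, Atf3, Chac1, Herpud1, Nupr1, Trib3 and Vldlr, among them 4 of the 10 ISR factors and 1 of the 9 genes of amino acid synthesis and transport, against 4.51% of all genes. The Trib3 match lay after the start site and the Vldlr match inside the gene, and the stretches around the others are given in the same way. On the opposite strand the element begins with TT and ends with CATCA.
Asns, chr6:7693210-7693248, minus strand: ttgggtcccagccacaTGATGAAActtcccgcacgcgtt
Atf3, chr1:191183420-191183459, minus strand: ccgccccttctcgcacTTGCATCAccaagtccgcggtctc
Chac1, chr2:119351033-119351072, plus strand: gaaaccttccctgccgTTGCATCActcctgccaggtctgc
Nupr1, chr7:126625557-126625596, minus strand: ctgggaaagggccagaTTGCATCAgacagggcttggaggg
Herpud1, chr8:94386301-94386340, plus strand: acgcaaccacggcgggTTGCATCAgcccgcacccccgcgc

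Elements in introns or farther upstream lie outside these windows and were not searched. A match describes letters and not a bound site.

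Sequencing depth was similar in 5 samples and lower in HE3. Between 17904879 and 19137059 reads were counted on genes in NC1 to NC3, HE1 and HE2, and 16078675 in HE3. HE3 stood apart from the other samples: it was the lowest of the 6 samples for 44.4% and the highest for 24.5% of the 13952 genes tested, and 15% of the tested genes lay more than 1 log2 unit under the NC mean in HE3, against 1.6% in HE1 and 2.86% in HE2. Its sum of RPKM (reads per kilobase of gene, scaled to the total reads of the sample) over all genes was 412361, against 340524 to 367430 in the other samples. The main values are therefore given with and without HE3. Markers of neural stem cells (Sox2, Nes, Pax6, Vim, Fabp7, Hes1, Hes5 and Slc1a3) were all detected. Their summed level was 3074 to 3712 RPKM in NC and 3361, 2953 and 4699 RPKM in HE1, HE2 and HE3. The median log2 difference of these markers from the NC mean was -0.202, -0.015 and -0.034 in HE1, HE2 and HE3. Of the 8 markers 6 had a log2 fold change below 0 between HE and NC, as had 7843 of the 13952 tested genes. Their median log2 fold change was -0.12, and -0.13 without HE3.

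To find out whether the 39 mRNAs differed between HE and NC NSC/NPCs, log2(RPKM + 0.1) was compared with limma over all tested genes. A call needed an adjusted p-value under 0.05 and a fold change, on the log2 scale, of 1 or more in either direction. By this rule 0 of the 39 mRNAs and 0% of the 13952 tested genes were called. In such bulk samples, fewer cells of a type and less RNA per cell cannot be told apart. Without adjustment, limma gave a p-value under 0.05 for 2858 genes over the whole table, 1211 higher and 1647 lower in HE, and 605 higher and 2204 lower after each sample was scaled to the same sum of RPKM. With limma's voom on the read counts 0 genes were called, with sample weights 268 and without NC3 103, none of them among the 39. At the unadjusted cutoff, 3 of the 39 mRNAs were higher in HE (7.69%, against 8.68% of all tested genes), namely Asns, Phgdh and Psat1. The mRNAs of Nupr1 and Sesn2 were lower (5.13%, against 11.8% of all tested genes). The scaling moved this split of the 39 mRNAs to 1 higher and 4 lower with median-of-ratios scaling and to 1 higher and 6 lower with scaling to the same sum of RPKM. In these fits the unadjusted limma p-value was 0.057 and 0.0599 for Asns and 0.0553 and 0.0532 for Phgdh, and that of Psat1 was under 0.05 in both. All 3 HE samples lay above all 3 NC samples for 5 of the 39 mRNAs (12.8%, against 14.8% of all tested genes) and below them for another 5 (12.8%, against 17.9%). These shares were below those of the whole table. The median log2 fold change was -0.06 over the 39 mRNAs and -0.06 over all tested genes.

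The gene groups within the 39 lay apart from each other, and the distances were smaller without HE3. The 14 ER chaperones had a median log2 fold change of 0.02, the 10 ISR factors and feedback genes of -0.80, and the 10 ATF4 targets of amino acid synthesis and transport of 0.35. Without HE3 the medians were 0.07, -0.38 and 0.11. All 10 ISR genes had a log2 fold change below 0, against 5 of the 14 chaperones and 1 of the 10 amino acid genes, and over all tested genes 7843 of 13952 were below 0.

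**Figure D1:**
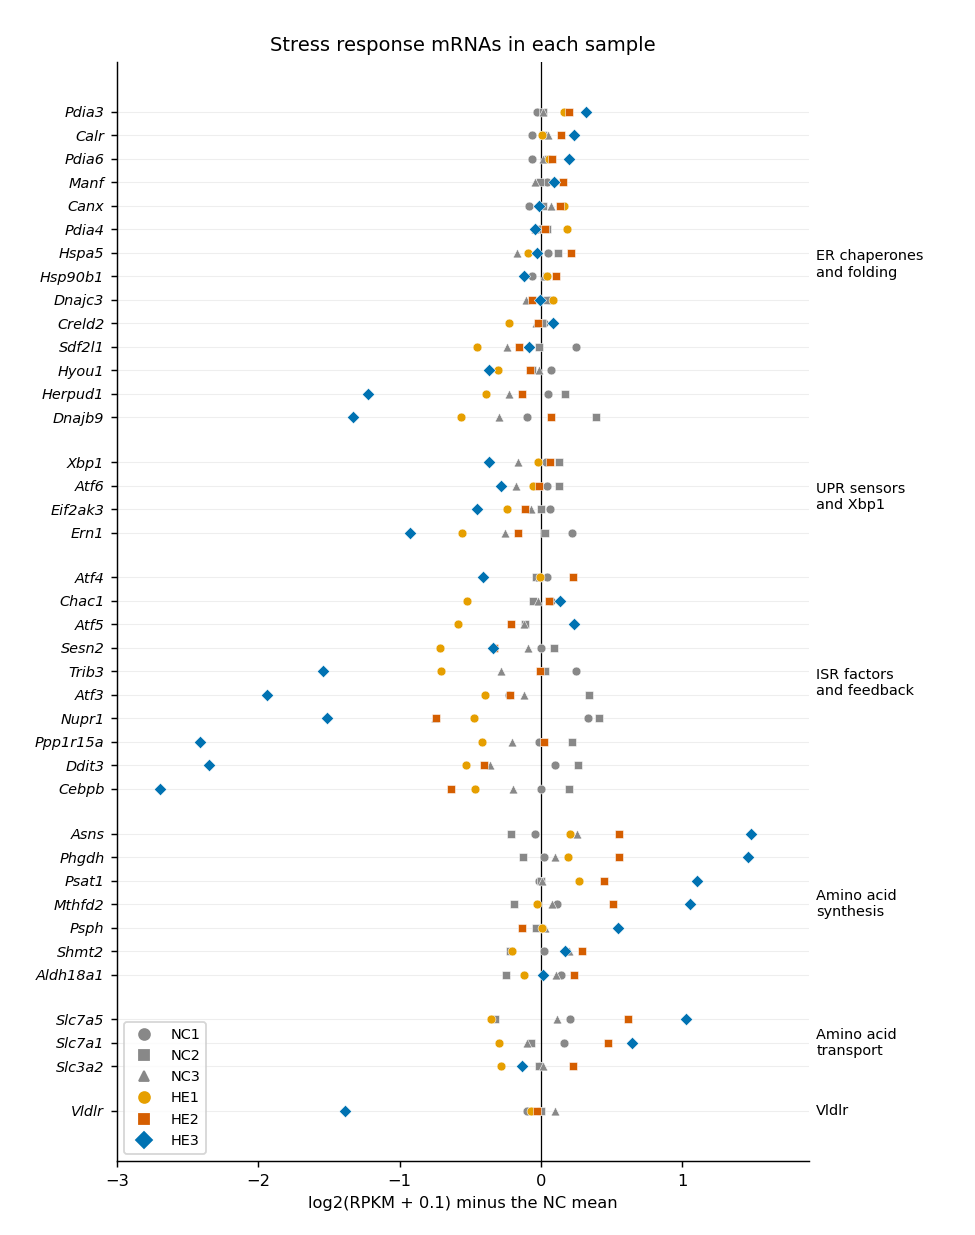
Level of each of the 39 mRNAs in each sample, as log2(RPKM + 0.1) minus the mean of the 3 NC samples (x axis), with genes ordered by log2 fold change within their group (y axis). Each point is 1 sample. HE3 (blue diamonds) lies more than 1 log2 unit from the NC mean for 14 genes, 5 above and 9 below, and no other sample does so for any of the 39. Over all tested genes, HE3 lies that far above for 3.21% and that far below for 15%. For HE1 and HE2 these shares are 1.25% to 2.86% in either direction.

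Most ER chaperones had similar levels in all 6 samples. Calr, which encodes the calcium-binding lectin calreticulin, was the most abundant of the 14 in NC at 469 ± 18.3 RPKM (SD, n = 3), and Dnajb9, an ER co-chaperone that binds IRE1, was the least abundant at 9.64 ± 2.47 RPKM. Hspa5 (ENSMUSG00000026864), which encodes BiP, the main ER chaperone and the protein that holds the sensors inactive, was at 246, 258 and 211 RPKM in NC1, NC2 and NC3 and at 223, 276 and 233 RPKM in HE1, HE2 and HE3. The groups overlapped, and HE3 lay between the NC samples. The log2 fold change of Hspa5 was 0.03 (standard error 0.14, limma adjusted p = 0.898).

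Of the 14 chaperones, 0 passed an unadjusted limma p-value of 0.05, against 8.68% of all tested genes higher and 11.8% lower in HE. For 3 of them, all HE samples lay above all NC samples, as they did for 14.8% of all tested genes. Pdia3, a protein disulfide isomerase that works with calreticulin and calnexin, was at 17.4, 17.9 and 17.9 RPKM in NC and at 19.9, 20.4 and 22.2 RPKM in HE. Its log2 fold change of 0.23 (standard error 0.10, limma adjusted p = 0.245) was the highest of the 14. It was 0.10 when each sample was scaled to the same sum of RPKM. Pdia6, another disulfide isomerase, which also acts on the sensors IRE1 and PERK, was at 123, 133 and 130 RPKM in NC and at 134, 136 and 148 RPKM in HE. Manf, a secreted ER protein with neurotrophic action, was at 32.3, 31.1 and 30.4 RPKM in NC and at 33.4, 34.9 and 33.3 RPKM in HE. For Pdia6 and Manf the distance between the nearest samples of the groups was about 1 RPKM, and their log2 fold changes of 0.12 and 0.11 (limma adjusted p = 0.506 and 0.464) turned to -0.01 and -0.02 under the same scaling.

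Hyou1 was the one chaperone of the 14 for which all HE samples lay below all NC samples, as they did for 17.9% of all tested genes. It encodes a large ER chaperone that exchanges the nucleotide of BiP. It was at 57.8, 52.5 and 54.4 RPKM in NC and at 44.4, 52.1 and 42.6 RPKM in HE. HE2 lay 0.07 log2 units below the NC mean, nearer to it than HE1 at -0.30 and HE3 at -0.36. In limma Hyou1 had a fold change of -0.25 on the log2 scale (standard error 0.12, limma adjusted p = 0.263).

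HE3 lay more than 1 log2 unit below the NC mean for 2 of the 14 chaperones, against 15% of all tested genes. Both were named after their values were seen. Herpud1, an ER membrane protein of the degradation machinery whose promoter held both the second form of the ER stress response element and the C/EBP-ATF element, was at 51.2, 55.8 and 42.3 RPKM in NC, at 37.7 and 45.1 RPKM in HE1 and HE2 and at 21.1 RPKM in HE3. Dnajb9 was at 8.83, 12.4 and 7.67 RPKM in NC, at 6.35 and 9.92 RPKM in HE1 and HE2 and at 3.7 RPKM in HE3. For both genes HE2 lay within the range of NC and HE1 below it. Of the other 12 chaperones, none was farther from the NC mean in an HE sample than Sdf2l1, part of a chaperone complex of the ER, at -0.45 in HE1. Of the 7 chaperones with an ER stress response element, Calr, Canx, Dnajc3, Hsp90b1 and Creld2 had log2 fold changes of 0.13, 0.09, 0.01, 0.01 and -0.05 (limma adjusted p between 0.573 and 0.974). Pdia4, a disulfide isomerase, and Sdf2l1 had log2 fold changes of 0.06 and -0.23, and their groups overlapped.

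The mRNAs of the 3 sensors and Xbp1 had NC means between 2.99 and 20.8 RPKM, at the low end of the chaperones or under it, and each of the 4 genes was lowest in HE3. Eif2ak3 (PERK) was at 13.6, 13 and 12.4 RPKM in NC and at 11, 12 and 9.46 RPKM in HE, so that all HE samples lay below all NC samples. In limma the log2 fold change of Eif2ak3 was -0.27 (standard error 0.13, limma adjusted p = 0.27) and -0.17 without HE3. Ern1 (IRE1) was at 3.47, 3.02 and 2.47 RPKM in NC and at 1.98, 2.63 and 1.51 RPKM in HE, where HE2 lay above the lowest NC sample. Its log2 fold change of -0.55 (standard error 0.24, limma adjusted p = 0.248) was the lowest of the 4, and it was -0.36 without HE3.

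Atf6 and Xbp1 differed less. Atf6 was at 7.45, 7.93 and 6.4 RPKM in NC and at 6.97, 7.17 and 5.92 RPKM in HE, with a log2 fold change of -0.12 (standard error 0.14) that was -0.03 without HE3. Xbp1 was at 21.2, 22.6 and 18.5 RPKM in NC and at 20.4, 21.6 and 16 RPKM in HE. HE1 and HE2 lay inside the NC range for both genes, and the log2 fold change of Xbp1 was -0.11 with HE3 (standard error 0.15, limma adjusted p = 0.669) and 0.02 without it.

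The ISR group showed the widest distance between samples. Atf4 (ENSMUSG00000042406), the central factor of the ISR, was at 159, 151 and 153 RPKM in NC and at 154, 181 and 116 RPKM in HE. HE1 lay inside the NC range, HE2 above it and HE3 below it. On the log2 scale the fold change of Atf4 was -0.06 (standard error 0.17, limma adjusted p = 0.856), with the opposite sign, 0.12, without HE3.

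Ddit3 (ENSMUSG00000025408, chr10:127290793-127296291), which encodes the transcription factor CHOP, was at 161, 181 and 117 RPKM in NC and at 104, 114 and 29.5 RPKM in HE. All HE samples lay below all NC samples, but HE1 and HE2 were near NC3, and HE3 was at 0.196 of the NC mean (mean of the log values). In limma the log2 fold change was -1.09 (standard error 0.50, adjusted p = 0.26) and -0.47 without HE3 (adjusted p = 0.242). Cebpb, a C/EBP factor that forms dimers with ATF4 and CHOP, followed the same order of groups. It was at 65, 74.6 and 56.8 RPKM in NC and at 47, 41.8 and 9.97 RPKM in HE, with HE3 at 0.154 of the NC mean. HE1 and HE2 lay 0.47 and 0.64 log2 units below the NC mean. The fold change of Cebpb on the log2 scale was -1.27 (standard error 0.55, limma adjusted p = 0.248), the lowest of the 39, and -0.55 without HE3 (standard error 0.13, limma adjusted p = 0.149).

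For Sesn2 the distance between the groups was no smaller without HE3. The gene encodes sestrin 2, a leucine sensor that inhibits mTORC1. Sesn2 was at 35.3, 37.5 and 33 RPKM in NC and at 21.4, 28 and 27.9 RPKM in HE, and HE1 was the lowest sample. Its log2 fold change was -0.46 (standard error 0.14, limma adjusted p = 0.195) and -0.52 without HE3, and over all 14 alternatives it lay between -0.59 and -0.33. Nupr1, a small stress-induced nuclear protein, was at 33, 34.8 and 15.5 RPKM in NC and at 18.8, 15.6 and 9.08 RPKM in HE. NC3 lay below HE1 and HE2, so the groups overlapped. For Nupr1 the log2 fold change was -0.91 (standard error 0.37, limma adjusted p = 0.237) and -0.61 without HE3.

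The remaining 5 ISR genes, of which values by sample are given for those named after they were seen, fell into a set with a low HE3 and a set without. Ppp1r15a, the regulatory subunit that returns eIF2 to its dephosphorylated state, was at 44.2 to 59.3 RPKM in NC, at 38.1 and 51.7 RPKM in HE1 and HE2 and at 9.51 RPKM in HE3. Atf3, an early stress-induced factor, was at 23.1 to 34.2 RPKM in NC, at 20.5 and 23.2 RPKM in HE1 and HE2 and at 6.96 RPKM in HE3. Trib3, a pseudokinase that restrains ATF4 and CHOP, was at 11.7 to 17 RPKM in NC, at 8.7 and 14.2 RPKM in HE1 and HE2 and at 4.83 RPKM in HE3. For all 3 of these genes HE2 was within the NC range and HE3 below every other sample. In contrast, HE3 was the highest of the 6 samples for Atf5, a factor of the mitochondrial stress response, and for Chac1, which degrades glutathione. Atf5 was at 27.9 to 35.6 RPKM in NC, at 20.1 and 26.1 RPKM in HE1 and HE2 and at 35.7 RPKM in HE3, and Chac1 was at 12.3 to 13.4 RPKM in NC, at 8.87 and 13.3 RPKM in HE1 and HE2 and at 14 RPKM in HE3. The 10 ISR genes together took 0.118%, 0.125% and 0.0989% of the reads in NC and 0.0866%, 0.101% and 0.0533% in HE, with HE2 above NC3.

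**Figure D2:**
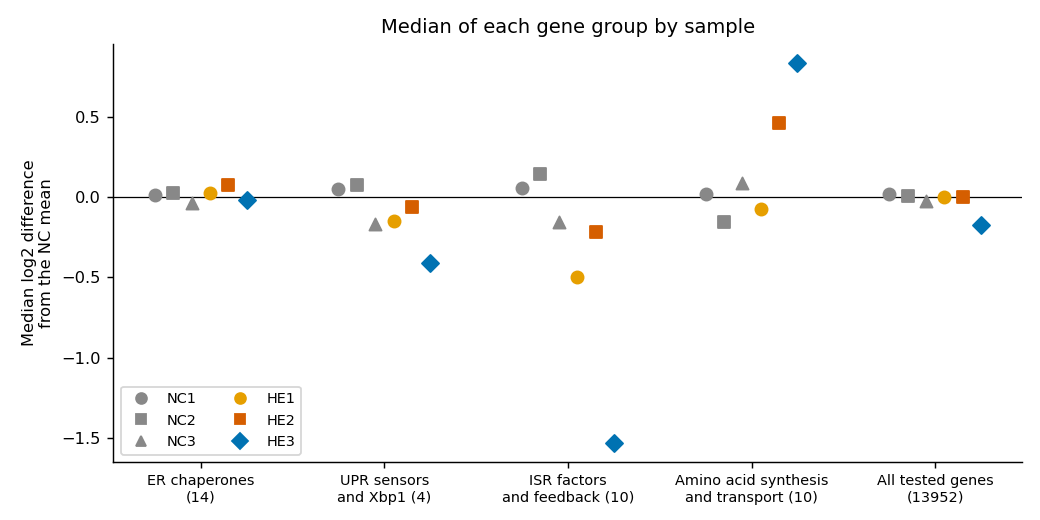
Median over the genes of each group of the log2 difference from the NC mean (y axis), for each sample (points) and gene group (x axis, number of genes in brackets), beside all tested genes. ER chaperones stay between -0.04 and 0.08 in all samples, whereas HE3 is at -1.53 for the ISR factors and at 0.83 for the genes of amino acid synthesis and transport. For all tested genes HE3 is at -0.17.

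All 7 genes of amino acid synthesis had a log2 fold change above 0, although 3 of them in HE1 and 1 in HE2 lay below the NC mean. Phgdh, Psat1 and Psph encode the successive enzymes of serine synthesis, which starts from an intermediate of glycolysis. Phgdh (ENSMUSG00000053398, chr3:98313171-98339969) was at 144, 130 and 152 RPKM in NC and at 162, 208 and 392 RPKM in HE. All HE samples lay above all NC samples, and HE3 was at 2.76 times the NC mean. In limma Phgdh had a fold change of 0.74 on the log2 scale (standard error 0.30, limma adjusted p = 0.238), and 0.37 without HE3 (adjusted p = 0.224).

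Psat1 (ENSMUSG00000024640, chr19:15905123-15925059) was at 51.5, 52.1 and 52.3 RPKM in NC and at 62.7, 71 and 112 RPKM in HE. The NC samples lay within 1 RPKM of each other, and each HE sample was at least 10 RPKM above them. Its log2 fold change of 0.61 (standard error 0.21, limma adjusted p = 0.205) was 0.36 without HE3 (standard error 0.09, adjusted p = 0.151). With sample weights, in which HE3 counts least, Psat1 had an adjusted p-value of 0.0493, the one value under 0.05 among the 39 mRNAs in any of the 15 fits, at a fold change below the cutoff. Psph, which encodes the last enzyme of the route, was at 17.1 to 17.9 RPKM in NC, at 17.6 and 16 RPKM in HE1 and HE2 and at 25.7 RPKM in HE3. It was the one of the 3 serine genes whose HE1 and HE2 samples did not lie above NC.

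Asns (ENSMUSG00000029752), which encodes asparagine synthetase and held the C/EBP-ATF element shown above, was at 16.9, 15 and 20.8 RPKM in NC and at 20.1, 25.6 and 49.1 RPKM in HE. HE1 lay below NC3, so the groups overlapped, and HE3 was at 2.82 times the NC mean. Its log2 fold change of 0.75 (standard error 0.32, limma adjusted p = 0.243) was the highest of the 39, and it was 0.38 without HE3. Mthfd2, a mitochondrial enzyme of one-carbon metabolism, was at 12.7 to 15.7 RPKM in NC, at 14.2 and 20.7 RPKM in HE1 and HE2 and at 30.3 RPKM in HE3. Shmt2, which feeds serine into the mitochondrial one-carbon route, and Aldh18a1, which makes a precursor of proline, had log2 fold changes of 0.09 and 0.05, and HE3 lay inside the NC range for both.

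Among the 3 transporters, each had its lowest level in HE1. Slc7a5 and Slc3a2 encode the light and the heavy chain of one exchanger of large neutral amino acids. Slc7a5 was at 36.8, 25.5 and 34.6 RPKM in NC and at 25, 49.1 and 65 RPKM in HE. Slc3a2 was at 87.8, 87.4 and 89.1 RPKM in NC and at 72.5, 103 and 80.4 RPKM in HE. HE2 was above the NC range for both chains, and HE3 for the light chain only. The log2 fold changes of Slc7a5 and Slc3a2 were 0.43 and -0.06 (standard errors 0.34 and 0.14, limma adjusted p = 0.457 and 0.806). That of Slc7a5 was 0.13 without HE3 and 0.82 without HE1 (limma adjusted p = 0.17). Slc7a1, which carries arginine and lysine, was at 7.71, 6.54 and 6.4 RPKM in NC and at 5.58, 9.56 and 10.8 RPKM in HE. Again HE1 lay below and the other HE samples above every NC sample, and the log2 fold change was 0.28 (standard error 0.25, limma adjusted p = 0.512). It was 0.09 without HE3 and 0.56 without HE1 (limma adjusted p = 0.179).

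Vldlr, a receptor of lipoproteins and of reelin that is induced through PERK and ATF4, was at 25.8, 27.6 and 29.6 RPKM in NC and at 26.3, 27.1 and 10.5 RPKM in HE. HE1 and HE2 lay inside the NC range and HE3 far below it. On the log2 scale its fold change was -0.50 with HE3 (standard error 0.35, limma adjusted p = 0.407) and -0.05 without it.

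The comparison of ER chaperones with ATF4 targets depended on the sample. Relative to the NC mean, the median of the 14 chaperones was 0.01, 0.02 and -0.04 in NC1, NC2 and NC3 and 0.03, 0.08 and -0.02 in HE1, HE2 and HE3. Over all tested genes the median was 0.019, 0.004 and -0.022 in NC and 0, -0.001 and -0.173 in HE. The median of the 10 genes of amino acid synthesis and transport was 0.02, -0.15 and 0.09 in NC and -0.07, 0.46 and 0.83 in HE. The median of these 10 ATF4 targets thus exceeded that of the chaperones by 0.38 log2 units in HE2 and 0.86 in HE3. In HE1 it lay 0.10 below that of the chaperones, inside the range of the NC samples of -0.18 to 0.12. This does not hold for all genes induced through ATF4. In HE3 Ddit3, Trib3, Ppp1r15a and Vldlr were at -2.35, -1.55, -2.41 and -1.39. Of the 10 ISR genes 8 lay below the NC mean in HE3 and 2 above it. Between the median fold changes of the groups the distance was 0.33 log2 units with all samples, but without HE3 the chaperone median minus the ATF4 target median was -0.04, and without HE1 it was -0.65.

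The groups were also compared by their share of the reads on genes, in which abundant mRNAs count most. Chaperone mRNAs took 0.537%, 0.558% and 0.535% of the reads in NC and 0.545%, 0.586% and 0.554% in HE, values that overlap. The 10 genes of amino acid synthesis and transport took 0.175%, 0.155% and 0.179% in NC and 0.165%, 0.221% and 0.291% in HE. HE1 lay inside the NC range and HE2 and HE3 above it.

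The amino acid genes and the ISR genes lay at opposite ends in HE3. Of the 10 genes of amino acid synthesis and transport, 7 were highest in HE3 and none was lowest, whereas of the 10 ISR factors and feedback genes 7 were lowest in HE3 and 2 were highest. Over all tested genes HE3 was lowest for 44.4% and highest for 24.5%. In HE2 the order was the same but the distances smaller, with 9 of the 10 amino acid genes above the NC mean and 7 of the 10 ISR genes below it. In HE1 9 of the 10 ISR genes were below the NC mean, and 6 of the 10 amino acid genes were below it too.

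**Figure D3:**
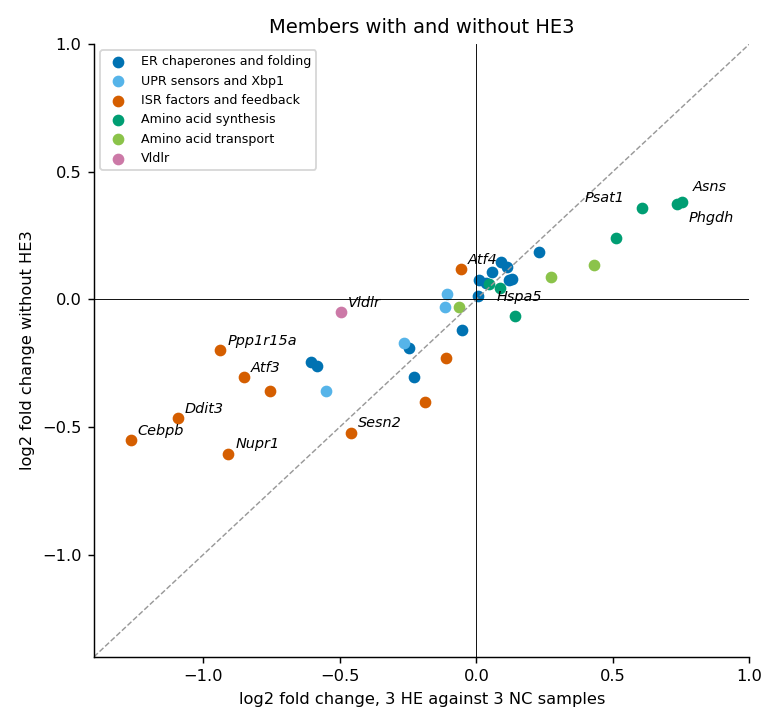
Log2 fold change of each of the 39 mRNAs between 3 HE and 3 NC samples (x axis) and after HE3 was left out (y axis), with each point a gene coloured by its group and a dashed line where both are equal. Cebpb, Ddit3 and Ppp1r15a move from -1.27, -1.09 and -0.94 to -0.55, -0.47 and -0.20, and Asns from 0.75 to 0.38, while Sesn2 stays at -0.46 and -0.52.

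Without HE3, the sign of the fold change remained below 0 for 9 of the 10 ISR genes and above 0 for 8 of the 10 amino acid genes. The unadjusted p-value was then under 0.05 for 6 of the 39 mRNAs (15.4%, against 19.9% of all tested genes in the same fit), with Ddit3, Cebpb, Atf5 and Sesn2 lower and Phgdh and Psat1 higher in HE, and again 0 were called. Left out in turn, the other samples also moved this count, and the share of all tested genes moved as well. The count was 1 (Sesn2) without NC1, 1 (Sesn2) without NC2 and 3 without NC3, where 9.62%, 11.7% and 16.5% of all tested genes were under 0.05. Without HE1 it was 10 (25.6%, against 22.3% of all tested genes), and without HE2 it was 12 (30.8%, against 20.5%). The count of mRNAs whose groups do not overlap was 10 with all samples (25.6%, against 32.7% of all tested genes). It was 17 without NC3 or without HE2 (43.6%, against 45.3% and 43.7% of all tested genes). Without NC2 it stayed at 10 (25.6%), where the share of all tested genes was 41.2%. Without NC1, HE1 and HE3 the share of the 39 was 30.8%, 38.5% and 33.3%, against 37.8%, 46.1% and 40.7% of all tested genes.

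Other genes of these pathways were counted by lists that are not part of the 39, and 0 genes of any of these lists were called. The test did not compare the lists with each other. At an unadjusted limma p-value under 0.05, 8.68% of all tested genes were higher and 11.8% lower in HE. The counts below use this cutoff, and none was tested against these shares. ER-associated degradation returns misfolded proteins to the cytosol for destruction. Of its 19 tested genes 0 were higher and 5 lower in HE where limma's p-value before adjustment had to be under 0.05, and the median log2 fold change was -0.18 (-0.12 without HE3). The lowest were Derl3, part of the exit channel, at 14.3, 11.8 and 9.96 RPKM in NC and 9.78, 7.46 and 3.96 RPKM in HE, and Syvn1, the ubiquitin ligase HRD1, at 9.18, 8.21 and 7.3 RPKM in NC and 5.72, 6.75 and 3.83 RPKM in HE. For both genes all 3 HE samples were below the NC range. The highest were Vcp, the ATPase that pulls proteins out of the membrane, and Edem3, with log2 fold changes of 0.25 and 0.24, which were 0.13 and 0.17 without HE3.

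Further ER folding genes numbered 26, of which 3 were higher and 0 lower at that cutoff, with a median of 0.10. Fkbp11, a prolyl isomerase of secretory cells, was at 8.89, 7.93 and 8.45 RPKM in NC and at 17.5, 14.9 and 11.1 RPKM in HE. Here HE3 was the HE sample nearest to NC, and the log2 fold change of 0.75 (standard error 0.18, limma adjusted p = 0.195) was 0.93 without it. Pdia5 was at 4.18, 2.86 and 4.23 RPKM in NC and at 5.28, 5.68 and 5.99 RPKM in HE, so that its HE samples lay close together above NC. At the other end, Ero1l, the oxidase that recharges disulfide isomerases, was at 111, 111 and 87.1 RPKM in NC, at 82.5 and 110 RPKM in HE1 and HE2 and at 15.5 RPKM in HE3. The log2 fold change of Ero1l was -0.98 with HE3 and -0.11 without it, and that of Ero1lb was -0.30.

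The translation factor eIF2, its exchange factor and its other kinases were given by 12 genes, of which 5 were higher and 1 lower, with a median of 0.17 (0.08 without HE3). Eif2s1, the subunit of eIF2 that the kinases phosphorylate, was at 22.7, 19.1 and 22.2 RPKM in NC and at 29.7, 27 and 37 RPKM in HE. Eif2b3, of the exchange factor, was at 2.23, 1.84 and 1.9 RPKM in NC and at 2.86, 2.71 and 3.67 RPKM in HE. For both genes all HE samples lay above NC (log2 fold changes 0.54 and 0.60, limma adjusted p = 0.195 for each). Eif2ak2 (PKR), the kinase activated by double-stranded RNA, had a log2 fold change of -0.70 with overlapping groups. Eif2ak4 (GCN2), the kinase that senses uncharged tRNA, had a log2 fold change of -0.23, which was -0.05 without HE3. It was at 5.34, 5.28 and 5.23 RPKM in NC and at 5.06, 5.18 and 3.42 RPKM in HE, so that all HE samples lay below NC.

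Among 13 tRNA synthetases and tRNA export genes, many of them known ATF4 targets, 4 were higher and 0 lower, with a median of 0.22 (0.18 without HE3). Lars was at 33.2, 31.6 and 32.9 RPKM in NC and at 38, 41.4 and 59.3 RPKM in HE, and Tars at 48.2, 38.8 and 43.6 RPKM in NC and at 52.7, 57.4 and 72.6 RPKM in HE. All HE samples of both genes lay above NC. Sars had a log2 fold change of -0.05, and Cars was at 18.7 to 19.6 RPKM in NC and at 16 to 21.3 RPKM in HE.

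Of 20 other ATF4 targets, 19 passed the filter on low counts (not Fgf21), with 3 higher and 1 lower and a median of 0.12 (0.03 without HE3). Gpt2, an alanine transaminase, was at 24, 35.9 and 33.5 RPKM in NC and at 43.1, 71.7 and 52 RPKM in HE, with a log2 fold change of 0.82 that was 0.86 without HE3. Slc7a3, a transporter of cationic amino acids, was at 0.99 to 1.26 RPKM in NC, at 1.15 and 1.39 RPKM in HE1 and HE2 and at 4.78 RPKM in HE3. At the opposite end, Ddit4 (REDD1), an inhibitor of mTORC1 that is also induced by lack of oxygen, was at 367 to 370 RPKM in NC, at 260 and 313 RPKM in HE1 and HE2 and at 85.9 RPKM in HE3. Slc38a2, a transporter of small neutral amino acids, was at 59.8, 54 and 45.7 RPKM in NC and at 38.7, 35.8 and 18.8 RPKM in HE. The HE samples of both genes all lay below NC, and without HE3 the log2 fold changes of Ddit4 and Slc38a2 were -0.37 and -0.50.

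Chaperones outside the ER served for comparison. Of 12 genes of the cytosolic heat shock response 3 were higher and 2 lower, with a median of -0.02, and of 9 mitochondrial chaperones and proteases 2 were higher and 0 lower, with a median of -0.01. Hspa8, the constitutive cytosolic Hsp70, was at 495, 424 and 531 RPKM in NC and at 645, 609 and 954 RPKM in HE, and Dnaja1, its co-chaperone, had a log2 fold change of 0.31. Hspd1 and Hspe1, which form the mitochondrial folding chamber, were at 66.8 to 88.6 and 95.9 to 114 RPKM in NC and at 102 to 126 and 122 to 159 RPKM in HE. For these 4 genes all HE samples lay above all NC samples. The inducible Hspa1a, whose reads may be shared with its near-identical copy Hspa1b, and Hspb1 had log2 fold changes of -0.96 and -0.91, which were -0.08 and -0.28 without HE3. The mitochondrial protease gene Lonp1 was at 140 to 145 RPKM in NC, at 110 and 138 RPKM in HE1 and HE2 and at 64.3 RPKM in HE3. All HE samples of Lonp1 thus lay below all NC samples. Clpx had a log2 fold change of -0.13.

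**Figure D4:**
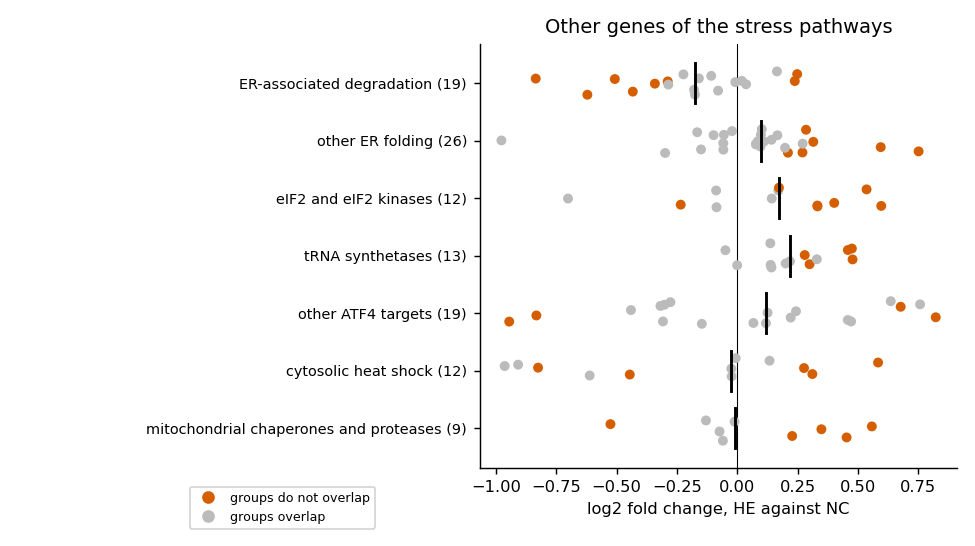
Log2 fold change between HE and NC (x axis) of each tested gene (points) of 7 lists outside the 39 mRNAs (y axis, number of tested genes in brackets), with the median as a bar and orange points where all HE samples lie on one side of all NC samples. The bar is at -0.18 for ER-associated degradation and at 0.22 for tRNA synthetases, and points lie on both sides of 0 in each list.

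Markers of other cell types also differed between samples. The summed level of 6 astrocyte markers was 1279 to 1563 RPKM in NC and 1283, 965 and 813 RPKM in HE1, HE2 and HE3, and that of 8 markers of the oligodendrocyte lineage was 291 to 321 RPKM in NC and 315, 371 and 515 RPKM in HE, although the median log2 difference of the latter list from the NC mean was -1.17 in HE3. Markers of neurons summed to 43.1 to 72.6 RPKM in NC and 49.9 to 67.9 RPKM in HE. Their share of the reads was 0.0421%, 0.0353% and 0.0374% in NC and 0.0465%, 0.0456% and 0.053% in HE, values that do not overlap. For 3 of the 8 neuron markers all HE samples lay above all NC samples, as they did for 14.8% of all tested genes. The other 5 had a log2 fold change below 0. Markers of mesenchymal cells summed to 131 to 203 RPKM in NC and 261, 205 and 103 RPKM in HE1, HE2 and HE3. Endothelial markers summed to 0.897 to 1.31 RPKM in NC and 2.54 to 3.68 RPKM in HE. Microglial markers summed to 0.581 to 0.868 RPKM in NC and 2.21, 0.799 and 3.89 RPKM in HE1, HE2 and HE3. Blood markers summed to 0.572 to 0.724 RPKM in NC and 0.51, 0.454 and 4.45 RPKM in HE1, HE2 and HE3, with Hba-a2 at 0 in all samples. The filter on low counts was passed by 2 of the 6 endothelial, 3 of the 6 microglial and 1 of the 6 blood markers. That blood marker lay at -1.24 log2 units from the NC mean in HE3, against the direction of the sum. The part of these cell types in the levels of the 39 mRNAs was not tested, nor was that of the lower depth of HE3.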

How the data were processed

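The RNA-Seq data cover first-passage neurospheres of 3 NC and 3 HE samples. Per the labels and methods, base calls came from CASAVA 1.7, and the authors filtered reads, aligned them to mm10 with TopHat2 and counted reads per gene. The counter, its annotation and its use of strand are not given in the sources used here, so overlapping genes and close paralogs could share reads. The authors deposited RPKM values, in which each count is divided by gene length and by the total of the sample, and these were reproduced within 4.99e-07. The deposited read counts are written with commas between digits and were recorded under another unit. The authors tested with DESeq2, which was not used here, and limma on RPKM took its place as planned. With the same cutoffs for fold change and adjusted p-value, the authors reported mRNAs that differed in both directions, whereas limma called 0 genes. The reason for this difference was not tested.

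Of 22048 gene identifiers 21781 were matched to a symbol. A gene was tested if at least 3 samples reached the equivalent of 10 reads at the median library size, with 15 reads or more over all samples (13952 genes, all 39 members included). limma (version 3.58.1, R 4.3.3) with a mean-variance trend was fitted to log2(RPKM + 0.1), with no term but the group, two-sided, with Benjamini-Hochberg adjustment over all tested genes, and fold changes are on this scale. With 3 samples against 3 an exact permutation test has 20 assignments and a smallest p of 0.1, so groups that do not overlap were only counted. Depth was 16078675 to 19137059 reads on genes per sample, at which 1 read on 1 kilobase is 0.0523 to 0.0622 RPKM (counting error only).

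The 39 members and all lists were chosen with earlier results of these data known. Values in every sample were given for Hspa5, Xbp1, Atf4, Ddit3 and Asns, for all members of lists of up to 4 genes, and for up to 6 members per list with the largest fold change among those at an unadjusted p-value under 0.05 or with groups that do not overlap (21 members), other members being named after their values were seen. Of each further list, the 2 highest and 2 lowest genes were named. The fit was repeated with sample weights, with voom, with a block for the replicate number, leaving out each sample, with a pseudocount of 1, with median-of-ratios scaling and with other filters (1 read in total, or 10 reads in each of the samples). Scaling to the same sum of RPKM was added after seeing the data. Promoter windows and coordinates are from RefSeq, GRCm38.p6, the assembly of mm10. lncRNAs were not analysed here.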

Additional observations from a re-analysis of the deposited data

How the results depend on the processing

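Of 294 values of the 21 members named by rule under 14 alternatives, 282 kept their direction and 12 changed sign at small size. None of the 21 was called in any fit, so this count describes signs and not sizes. Vldlr, counted as kept, had a log2 fold change of -0.50 with all samples and -0.05 without HE3. With 1 sample left out, Hspa5 ranged from -0.057 (without HE2; -0.051 without NC3) to 0.096, Xbp1 from -0.193 to 0.021 (without HE3), Atf4 from -0.204 to 0.119 (without HE3) and Slc3a2 from -0.206 to 0.045 (without HE1). Atf4 was at 0.004 with median-of-ratios scaling. With sample weights Xbp1, Atf4 and Slc3a2 were at 0.028, 0.139 and 0.082, and with scaling to the same sum of RPKM Hspa5, Pdia6 and Manf were at -0.096, -0.012 and -0.015. Over all genes, 103 were called without NC3 (7 higher, 96 lower), 268 with sample weights (100 higher, 168 lower) and 0 in the other fits, so that leaving out 1 sample gave 0 to 103. The count of members at an unadjusted p-value under 0.05, 5 with all samples, was 1 to 12 with 1 sample left out (9.62% to 22.3% of all tested genes) and 8 with sample weights (20.5%, against 29.5% of all tested genes), and the count whose groups do not overlap, 10, was 10 to 17 with 1 sample left out (37.8% to 46.1% of all tested genes). The chaperone median was 0.084 with median-of-ratios scaling, 0.085 with sample weights, -0.107 with scaling to the same sum of RPKM and -0.011 (without NC3) to 0.069 (without HE3) with 1 sample left out. Scaling to the same sum of RPKM, chosen after seeing the data, moved the median of all genes from -0.06 to -0.18 and the share of higher genes among those at p under 0.05 from 42.4% to 21.5%. The ISR median was -1.06 to -0.38 with 1 sample left out and -0.32 with sample weights, and that of the amino acid genes 0.11 to 0.67 with 1 sample left out. With the replicate number as a block, 12 members (30.8%, against 22.8% of all tested genes) were at p under 0.05 and 0 genes were called. Deviations of same-numbered NC and HE samples correlated at 0.156, 0.0869 and 0.0603, each the best match of its sample. Those of the other pairs lay between -0.0764 and -0.00114. No label ties the numbers, and whether same-numbered samples shared a batch was not tested. The causes of these shifts were not tested. With 3 samples a group and 1 of them apart, a p-value that missed the cutoff does not show equal levels, and at this depth the lowest count behind a value of the 39 mRNAs was 111 reads (Dnajb9 in HE3).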
